A study of Mus musculus with 9 samples.

Results

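Of the 42006 distinct probes on the arrays, 216 gave a higher level in Zscan4-ERT2 embryonic stem (ES) cells given tamoxifen than in the same clone without it, while their level without tamoxifen stayed close to that of the control clone. They are described here as the transcripts higher with tamoxifen only, counted by probe, so that a transcript measured by several probes counts more than once. They were chosen by the measured values themselves. A member had to be well above background in the sample dye on all 3 tamoxifen arrays, to have a mean log2 ratio at least 1 higher with tamoxifen than without, to differ by less than 0.5 between the clone without tamoxifen and the control clone, and to have its lowest tamoxifen array above its highest array without tamoxifen. The first condition kept 23729 transcripts, and 389 of these reached the difference of 1. Of the 389, 136 were left out because the clone without tamoxifen lay at least 0.5 below control, 35 because it lay at least 0.5 above, and 2 because arrays overlapped. Because the rule used these contrasts, the differences of the members between the groups are a description and carry no test.

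The cells were V6.5, a male ES line from a cross of C57Bl/6 with 129. The control group was clone #2, labelled as a control transfection, grown for 3 days. The other groups were clone #18, a single clone in which the pCAG promoter drives Zscan4 fused to ERT2, grown for 2 days without tamoxifen (Tmx-) or with 200 nM tamoxifen (Tmx+). Each group had 3 arrays, and all cells were grown with LIF. Tamoxifen was not given to the control clone on any array, so an effect of the drug itself and an effect of the activated fusion cannot be told apart. Clone, transgene and days in culture also differ together between clone #18 and control. All control arrays lay on the same slide, which held no Tmx+ array, and most Tmx- arrays lay on another. Slide therefore differs together with these in the contrasts with control. The labels do not say whether the 3 samples of a group came from separate cultures, so the spread given here may be technical.

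Zscan4 encodes a zinc finger protein made in the 2-cell mouse embryo and, in ES cultures, in a small and changing share of the cells, where it is known for its part in telomere maintenance and genome stability. ERT2 is the ligand-binding part of the estrogen receptor, mutated so that it binds tamoxifen and not the natural hormone. A protein fused to it is held inactive in the cytoplasm until tamoxifen is added, which lets it act in the nucleus. In such a design the genes that respond to the active fusion would be looked for in the contrast of treated with untreated cells of the clone, and the leak of the uninduced fusion in the contrast with control.

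Every array compared a sample in green dye (Cy3) with a common reference in red dye (Cy5), a pool of RNA from many mouse cell lines to which RNA of another ES line was added. A transcript's level is the log2 ratio of sample to reference from Agilent's processed signals, so that 0 is the level of the reference. The rise of a member is its Tmx+ mean minus its Tmx- mean on this scale. Mean Cy3 intensity per array ranged from 1243 to 2151, and no sample spot was saturated. The arrays carry sequences but no gene names. The level of Zscan4 itself, the ES cell markers and lists of pathway genes were therefore not analysed here, and members are named by their probe. In RNA from whole cultures, more cells that express a transcript and more RNA per cell cannot be told apart.

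The sequences below are the 60-base probes through which the main members can be identified, given 5′ to 3′ as on the array. These are the 6 of the 20 largest rises that were well above background on all 9 arrays.
Z00029536-1: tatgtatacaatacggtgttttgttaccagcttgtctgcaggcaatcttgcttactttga
Z00057217-1: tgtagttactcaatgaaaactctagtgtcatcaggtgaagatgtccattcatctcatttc
Z00024944-1: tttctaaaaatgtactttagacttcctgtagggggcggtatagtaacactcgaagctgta
Z00026049-1: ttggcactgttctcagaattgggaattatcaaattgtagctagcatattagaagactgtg
Z00015795-1: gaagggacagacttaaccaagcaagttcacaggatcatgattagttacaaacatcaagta
Z00067688-1: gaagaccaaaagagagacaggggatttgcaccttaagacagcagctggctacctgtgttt

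The next sequences belong to the 3 members with the brightest Cy3 signal in control cells, where the ratio is least affected by background. Capitals mark AATAAA, the usual polyadenylation signal.
Z00036262-1: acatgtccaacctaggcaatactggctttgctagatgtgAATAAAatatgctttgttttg
Z00025906-1: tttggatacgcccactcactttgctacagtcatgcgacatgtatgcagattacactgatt
Z00023460-1: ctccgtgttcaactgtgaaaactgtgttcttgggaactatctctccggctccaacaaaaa

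The last sequences show members that share sequence and so measured the same or closely related transcripts more than once. Capitals mark the stretch shared by the members of a family, aligned with mismatches for Z00033551-1 and Z00064897-1 and identical for the others. Z00070655-1 has the same 60 bases as Z00054665-1.
Z00054665-1: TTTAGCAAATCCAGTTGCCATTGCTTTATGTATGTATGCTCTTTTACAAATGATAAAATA
Z00017400-1: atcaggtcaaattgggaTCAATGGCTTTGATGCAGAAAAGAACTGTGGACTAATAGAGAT
Z00073717-1: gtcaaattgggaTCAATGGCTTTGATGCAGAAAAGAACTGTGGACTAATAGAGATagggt
Z00072996-1: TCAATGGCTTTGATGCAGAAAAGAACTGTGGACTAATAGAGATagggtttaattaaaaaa
Z00025395-1: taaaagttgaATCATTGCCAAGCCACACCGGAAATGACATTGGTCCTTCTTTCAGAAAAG
Z00058639-1: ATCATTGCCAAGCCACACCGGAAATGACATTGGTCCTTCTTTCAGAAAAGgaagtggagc
Z00064111-1: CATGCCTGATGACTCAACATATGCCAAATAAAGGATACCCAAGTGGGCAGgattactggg
Z00077980-1: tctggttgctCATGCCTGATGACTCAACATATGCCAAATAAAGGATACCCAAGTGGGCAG
Z00033551-1: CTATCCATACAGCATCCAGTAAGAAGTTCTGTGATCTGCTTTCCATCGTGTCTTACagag
Z00064897-1: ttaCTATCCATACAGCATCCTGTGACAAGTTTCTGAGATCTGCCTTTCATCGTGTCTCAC

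The rises of the 216 members ranged from 1.00 to 3.34 on the log2 scale, with a median of 1.26, against a median of 0.01 over the 23729 transcripts that passed the filter on dim signals. A rise of at least 2, which is 4-fold, was reached by 25 members. Another 42 lay between 1.5 and 2, and 149 lay below 1.5. The members thus crowd toward the threshold. The 3 members nearest inside the threshold of 1 were Z00048828-1, Z00025894-1 and Z00051807-1, at 1.0005, 1.0028 and 1.0048. The 3 nearest outside it were Z00009716-1, Z00056873-1 and Z00033564-1, at 0.9991, 0.998 and 0.9974.

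The levels of the members had a median of -0.21 in control, -0.31 in Tmx- and 1.20 in Tmx+. Each median was taken on its own, so their differences are not the median rise. The SD over the 3 arrays had a median over the members of 0.13 in control, 0.16 in Tmx- and 0.09 in Tmx+. The gap from the highest Tmx- array to the lowest Tmx+ array had a median of 1.02, was at least 1 at 114 members and was below 0.5 at 13. It was smallest at Z00042175-1, with 0.02.

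**Figure D1:**
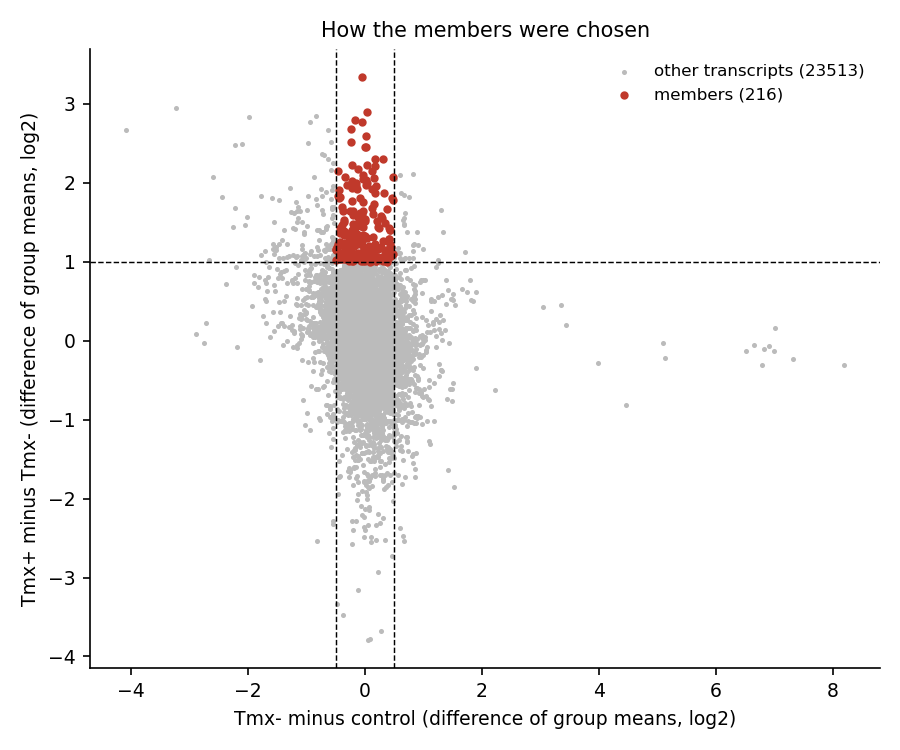
Each point is a transcript well above background on the 3 Tmx+ arrays, with Tmx- minus control on the x axis and Tmx+ minus Tmx- on the y axis, both differences of group means in log2 units. The dashed lines are the limits of the rule, at 1 and at 0.5 on either side of 0, and the 216 members in red fill the upper middle field, most of them between 1 and 1.5.

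Tmx- minus control, which the rule held within 0.5, had a median of -0.06 over the members. It was below 0 at 129 members and above 0 at 87, and it lay within 0.1 of 0 at 53 and within 0.25 at 133. The 3 Tmx- arrays and the 3 control arrays overlapped at 144 members, all Tmx- arrays lay below control at 43, and all lay above at 29. In the limma fit across 24757 transcripts, Tmx- differed from control at 39 of the 216 members with a Benjamini-Hochberg adjusted p below 0.05, being higher at 15 and lower at 24, beside 21.5% of all transcripts tested in either direction. The rule used this contrast, so nothing is read from these counts. The share of all transcripts with overlapping Tmx- and control arrays is not given here. Nearest inside this limit were Z00076828-1, Z00035503-1 and Z00074346-1, with Tmx- minus control at -0.4934, -0.4925 and -0.4888. Nearest outside were Z00045505-1 at -0.5026, Z00026007-1 at 0.5028 and Z00070383-1 at -0.5031.

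Levels in Tmx+ also lay above control, which the rule fixed in advance through its limits of 1 and 0.5. The values and the count that follow are a description of that choice. Tmx+ minus control had a median of 1.27 and ranged from 0.54 to 3.28. Every Tmx+ array lay above every control array at 214 of the 216 members, beside 32.6% of the 23729 transcripts. The exceptions were Z00055854-1 and Z00010051-1, at which 1 control array reached into the range of Tmx+. Z00010051-1 read 1.94, 0.87 and -0.09 in control, 1.64, 0.61 and -0.07 in Tmx- and 1.87, 2.27 and 1.92 in Tmx+. In both untreated groups the range of its arrays was wider than the difference of its group mean from Tmx+.

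In the limma fit of normexp-corrected and loess-normalized ratios, 215 of the 216 members were called higher in Tmx+ than in Tmx-, beside 21.0% of all transcripts tested. With a change of at least 2-fold as well, 64 members were called, beside 0.424% of all. Against control, 211 members were called higher, beside 21.6% of all. These counts follow from the choice of the members. The exception in the first count was Z00033136-1, and those in the last were Z00024932-1, Z00033243-1, Z00044316-1, Z00059088-1 and Z00075978-1.

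Of the 20 members with the largest rises, 6 had a Cy3 signal well above background on all 9 arrays. Among these, Z00057217-1 read 1.61, 1.58 and 1.53 in control, 1.75, 1.53 and 1.48 in Tmx-, and 4.09, 3.98 and 4.05 in Tmx+. The untreated groups lay on top of each other, and the treated arrays lay far above them. The rise was 2.45 (SD 0.14 in Tmx- and 0.06 in Tmx+, n = 3 each). Its Cy3 signal went from 204, 187 and 215 in Tmx- to 1066, 868 and 927 in Tmx+, while its Cy5 signal stayed between 55.1 and 76.9 on all 6 arrays.

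Z00015795-1 read -1.96, -1.92 and -1.67 in control, -1.65, -1.91 and -1.88 in Tmx-, and 0.40, 0.43 and 0.42 in Tmx+. It was the brightest of the 20 largest rises, with mean Cy3 signals of 653 in Tmx- and 3215 in Tmx+. It lay below the reference in untreated cells and above it in treated cells, with all Tmx+ arrays within 0.03 of each other. Its rise was 2.23, and on the normexp scale it had the largest rise of all members, 2.07.

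Z00024944-1 read 0.52, 0.68 and 0.42 in control, 0.99, 0.75 and 0.81 in Tmx-, and 3.04, 3.29 and 3.13 in Tmx+, a rise of 2.31. Here each Tmx- array lay slightly above each control array. Z00026049-1 read 0.22, 0.06 and 0.26 in control, 0.50, 0.34 and 0.21 in Tmx-, and 2.57, 2.67 and 2.70 in Tmx+, a rise of 2.30. Z00067688-1 read 1.65, 1.52 and 1.71 in control, 2.06, 1.67 and 1.67 in Tmx-, and 3.92, 3.53 and 4.61 in Tmx+, a rise of 2.22. Its Tmx+ arrays were spread over more than 1 unit, yet the lowest lay above all untreated arrays. In Tmx+ its Cy3 signal was 406, 389 and 376, and its Cy5 signal was 26.9, 33.7 and 15.4. The spread of the ratio thus lay mostly in the reference dye. On the Cy3 signal alone its rise was 1.74.

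Z00029536-1 had the sixth largest rise, 2.60, and the widest spread of all members in Tmx+. It read 1.93, 2.50 and 2.44 in Tmx- and 4.52, 4.29 and 5.87 in Tmx+. Its Cy3 signal was 115, 89.3 and 71.8 in Tmx- and 208, 195 and 263 in Tmx+, which do not overlap. Its Cy5 signal was 30.2, 15.8 and 13.2 in Tmx- and 9.08, 9.99 and 4.50 in Tmx+. Of the rise, 1.28 lay in the sample dye, and the reference dye moved by -1.32.

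The 5 largest rises and 14 of the 20 largest came from members that were not well above background on every control and Tmx- array. Z00060430-1, with the largest rise of 3.34, read -1.68, -0.78 and 0.00 in control, 0.00, -0.88 and -1.75 in Tmx-, and 2.20, 3.06 and 2.11 in Tmx+. Its mean Cy3 signal was 5.88 in control and 6.11 in Tmx-, where Agilent had put a surrogate for a signal at background, and 58.6 in Tmx+. Its untreated levels are therefore not measured ratios. After normalization of the single Cy3 channel, Tmx+ was at least 1.37-fold above Tmx-. Z00025216-1 was of the same kind, with Tmx- read as 0 on all 3 arrays because both dyes held surrogates, and with 2.97, 2.48 and 3.26 in Tmx+. Its bound was at least 1.23-fold.

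Over all members, 18 were not well above background on any Tmx- array, 36 on some and 162 on all. The bound of the 18 ranged from at least 1.08-fold to at least 1.60-fold, with a median of 1.33. Each bound sets the mean of the 3 Tmx+ arrays against, on each Tmx- array, the higher of the probe's own signal and the lowest signal well above background. It is open to dye bias because no dyes were swapped. The signals include the offset of 50 from normexp, which lowers the bound. The highest, for Z00036378-1, stood beside ratios of -0.07, -1.31 and -0.14 in Tmx- and 1.80, 2.04 and 1.99 in Tmx+. At these members the arrays did not overlap, but the bound is only a lower limit and does not give the size of the change.

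**Figure D2:**
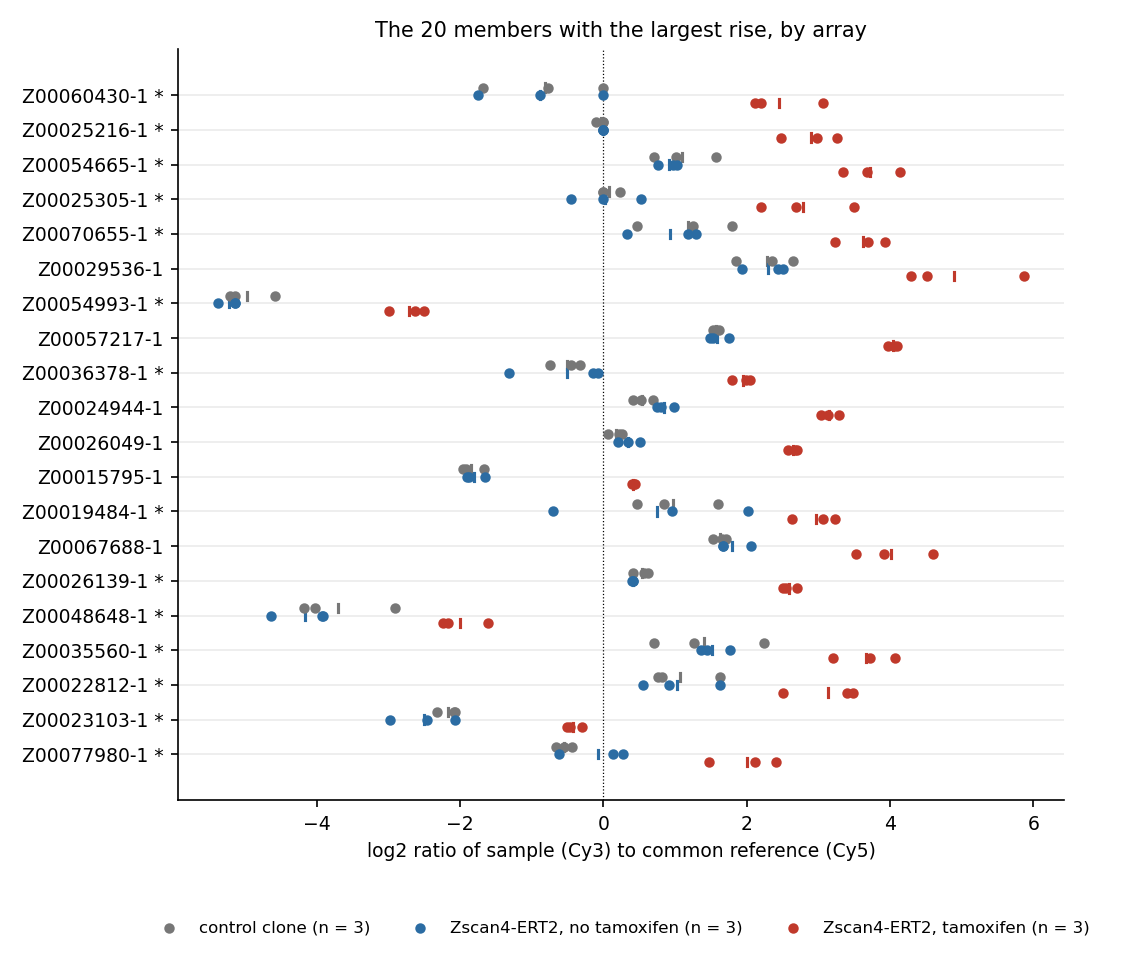
Levels of the 20 members with the largest rise on each of the 9 arrays, as log2 ratio of sample to reference, with points for arrays and vertical strokes for group means (n = 3). An asterisk marks members not well above background on all control and Tmx- arrays, which are 14 of the 20, and at each of the 20 the red Tmx+ points lie to the right of all blue and grey points.

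The 154 members that were well above background on all 9 arrays had a median rise of 1.20, and the other 62 a median of 1.56. After normexp with an offset of 50 and loess, the order was turned. The median rise was 0.94 over the 154 and 0.41 over the 62. The SD of the Tmx- arrays had a median of 0.13 over the 154 and of 0.36 over the 62. On the normexp scale 64 of the 216 members kept a rise of at least 1, and none fell below 0. The lowest was 0.16.

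**Figure D3:**
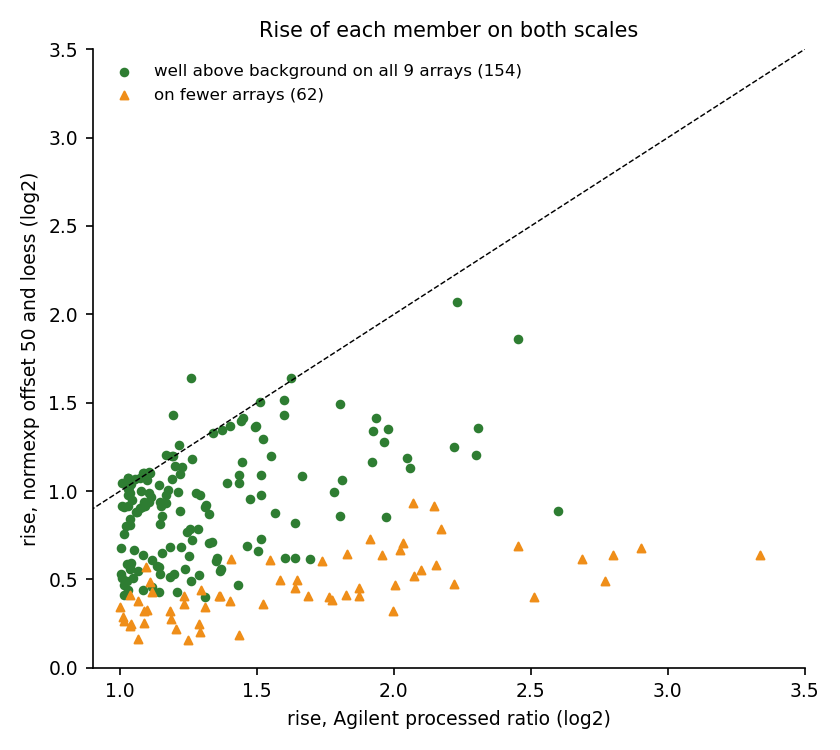
Rise of each member from Agilent's processed ratio (x axis) and after normexp with offset 50 and loess (y axis), both log2, with the dashed line at equal values. The 154 members well above background on all 9 arrays (green circles) have a median of 0.94 on the y axis, and the 62 others (orange triangles) stay below 1 there, whatever their value on the x axis.

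The members, as a selected group, were dimmer in control cells than most transcripts. Their mean Cy3 signal in control had a median of 101 (quartiles 43.9 and 407), against 920 (quartiles 191 and 4060) over the 23729 transcripts. The rule asked for detection on the Tmx+ arrays only, so dim untreated signals could enter. Low signal was not particular to the members. The median was 162 over the 136 left out with Tmx- below control and 40.2 over the 35 with Tmx- above. The brightest members stood at the other end of the range. Z00036262-1 had a Cy3 signal of 92310, 88250 and 79600 in Tmx- and 186900, 184100 and 165800 in Tmx+. Its ratio was 0.96, 1.04 and 1.09 in control, 1.15, 1.13 and 1.01 in Tmx-, and 2.33, 2.36 and 2.20 in Tmx+. The groups without tamoxifen overlapped, and the treated arrays lay clear of them, with a rise of 1.20. Z00025906-1 and Z00023460-1, the next brightest, had rises of 1.03 each and Tmx+ arrays within 0.11 of each other.

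The reference pool holds RNA of many cell types, so the level sets a transcript in these ES cells against that pool. At 52 members the Cy5 signal was not well above background on every array, and there the level is a ratio to a reference signal near background. In control cells, 74 members lay at or below -1, 95 between -1 and 1 and 47 at or above 1. These are 34.3%, 44.0% and 21.8% of the members. Of the 23729 transcripts, 2845, 17326 and 3558 fell into these classes, so that 73.0% lay in the middle one. The members were thus found at both ends of the scale more often than the transcripts from which they were drawn, as a description of a selected group. This was not particular to them. The low and high classes held 35.3% and 33.8% of the 136 left out with Tmx- below control, and 22.9% and 25.7% of the 35 with Tmx- above. The median rise was 1.28 in the low class, 1.32 in the middle class and 1.15 in the high class.

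In the low class the median went from -2.27 in control to -0.94 in Tmx+, and 7 of the 74 lay above the reference in Tmx+. Z00054993-1 was the lowest of the large rises. It read -4.59, -5.22 and -5.14 in control, -5.14, -5.38 and -5.15 in Tmx-, and -2.99, -2.51 and -2.64 in Tmx+. The rise of 2.51 left it far below the reference. Its Cy3 signal was not well above background on any untreated array, and its Cy5 signal was 313 in Tmx- and 302 in Tmx+.

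In the middle class the median went from 0.10 in control to 1.43 in Tmx+, and 92 of the 95 lay above the reference in Tmx+. In the high class it went from 1.51 to 2.80. The highest level in Tmx+ was 5.55, at Z00024130-1, over a low mean Cy5 signal of 34.5. That member read 3.97, 4.06 and 3.64 in control, 4.55, 3.88 and 4.43 in Tmx-, and 5.59, 5.51 and 5.54 in Tmx+. Its Tmx+ arrays lay close together and above all others. Over all members, 52 crossed from below the reference in Tmx- to above it in Tmx+, 94 were at or above it in both, and 70 were below it in both.

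A rise in the ratio can come from the sample dye or from the reference dye, which held the same RNA on all arrays. The Cy3 signal of the members changed by a median of 1.29 (log2, Tmx+ minus Tmx-) and the Cy5 signal by 0.03. The Cy3 change was at least 1 at 195 members and had its lowest value at 0.37. The Cy3 signals of Tmx+ and Tmx- did not overlap at 208 members. The rule asked for ratios without overlap, so this count follows from it in part, and no share over all transcripts stands beside it. The Cy5 change was above 0.3 at 17 members and below -0.3 at 18, which are 7.87% and 8.33% of the members. Over the 23729 transcripts the shares were 5.93% and 1.42%. They were 11.8% and 8.09% over the 136 left out with Tmx- below control, and 17.1% and 5.71% over the 35 with Tmx- above. All these sets but the 23729 were chosen on a rise of the ratio, which a fall in Cy5 increases.

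At 7 of the 8 members whose Cy3 signals overlapped, the reference signal was lower in Tmx+. Z00030833-1 had Cy3 signals of 209, 44.0 and 46.4 in Tmx- and 102, 98.9 and 101 in Tmx+. Its Cy5 signals were 176, 26.2 and 14.8 in Tmx- and 24.8, 7.42 and 15.1 in Tmx+. Tmx- replicate 1 was high in both dyes, and the rise of 1.96 in the ratio stood beside a Cy3 change of 0.42. Z00060056-1 was similar, with a rise of 1.77, a Cy3 change of 0.56 and a Cy5 change of -1.22.

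The largest Cy5 changes in the other direction were 0.83 at Z00025121-1, 0.73 at Z00024130-1 and 0.71 at Z00031175-1. At Z00024130-1 the Cy3 signal went from 424, 456 and 344 in Tmx- to 1387, 1733 and 1713 in Tmx+, and the Cy5 signal from 18.1, 30.9 and 15.9 to 28.7, 37.9 and 36.8. Its rise of 1.26 in the ratio was thus smaller than its Cy3 change of 1.98. How far signal passes between the dyes was not tested.

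**Figure D4:**
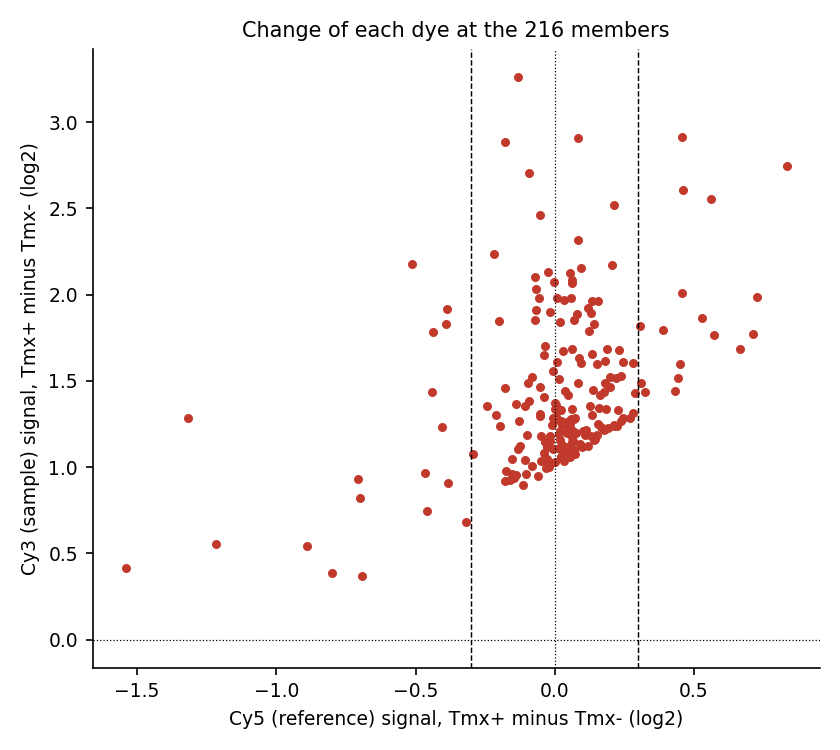
Change from Tmx- to Tmx+ in the reference dye (x axis) and the sample dye (y axis) at each of the 216 members, as differences of mean log2 processed signals. All members lie above 0 on the y axis, the lowest at 0.37, and dashed lines at -0.3 and 0.3 set off the 18 and 17 members whose reference signal also moved.

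Members that share sequence gave repeated measurements within the arrays. There were 5 families with at least 85% identity over 40 bases on the same strand, with 11 members in all. Z00054665-1 and Z00070655-1, with the same 60 bases, read 3.67, 3.35 and 4.14 and 3.70, 3.23 and 3.92 in Tmx+. In Tmx- they read 0.97, 0.76 and 1.03 and 0.33, 1.29 and 1.17. They lay within 0.22 of each other on each Tmx+ array and up to 0.64 apart on a Tmx- array, where neither was well above background. Their rises were 2.80 and 2.69.

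Z00017400-1, Z00073717-1 and Z00072996-1 tile 1 sequence, sharing 43 bases among all and 55 or 48 between neighbours. Z00017400-1 read -1.54, -1.61 and -1.64 in Tmx- and -0.49, -0.52 and -0.52 in Tmx+. Z00073717-1 read -1.60, -1.63 and -1.70 in Tmx- and -0.59, -0.56 and -0.53 in Tmx+. Z00072996-1 read -1.53, -1.62 and -1.68 in Tmx- and -0.52, -0.50 and -0.49 in Tmx+. Their mean Cy3 signals in Tmx- were 2953, 2616 and 2000, and their rises were 1.09, 1.09 and 1.11. Their Tmx- minus control differences were 0.00, 0.01 and -0.04. As probes of shared sequence they count as 1 transcript measured again and not as separate support.

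The 2 probes Z00025395-1 and Z00058639-1, which share 50 bases, had rises of 1.21 and 1.31, from -5.08 and -5.15 in Tmx- to -3.87 and -3.84 in Tmx+. Both stayed far below the reference. Z00064111-1 and Z00077980-1, which also share 50 bases, had rises of 1.40 and 2.07 and read 1.70, 1.98 and 2.08 and 1.47, 2.42 and 2.11 in Tmx+. Their difference in rise came mostly from Tmx-, where they averaged 0.52 and -0.07. Z00033551-1 and Z00064897-1, which are 86.0% identical over 57 bases, had rises of 1.01 and 1.03 although their mean Cy3 signals in Tmx- were 334 and 4168.

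A further 7 members each had a related probe that was no member. These related probes had differences between Tmx+ and Tmx- of 1.02 (Z00045886-1), 0.96 (Z00075128-1), 0.91 (Z00074347-1), 0.86 (Z00072981-1), 0.85 (Z00022415-1), 0.57 (Z00023889-1) and 0.13 (Z00060470-1). All were above 0. Z00045886-1 reached the difference of 1 and was left out because its Tmx- level lay 0.64 above control. Z00075128-1, Z00074347-1 and Z00072981-1, which share 53, 58 and 52 identical bases with their members, were left out by the threshold of 1 alone.

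The probe sequences of the members were searched, on both strands, in RefSeq's windows from 250 bases before to 50 bases after the gene starts of GRCm38.p6 and in its miRNA hairpins. No member matched over its whole length, and none matched a hairpin. In this search, Z00026161-1 and Z00031175-1 gave partial matches, to separate windows of the same gene symbol, Gm21286. The part of each probe that aligned is in capitals.
Z00026161-1: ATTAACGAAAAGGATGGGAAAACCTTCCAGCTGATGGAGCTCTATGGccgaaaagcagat
Z00031175-1: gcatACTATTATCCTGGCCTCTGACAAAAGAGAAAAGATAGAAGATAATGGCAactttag

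Z00026161-1 was 85.1% identical over 47 bases to chr4:60838970-60839016, and Z00031175-1 89.8% over 49 bases to chr4:60837361-60837409, both on the + strand of GRCm38.p6. The matches are not exact and name no gene for the probes. Z00026161-1 read between 1.04 and 1.16 in control, 1.65, 1.51 and 1.57 in Tmx- and 2.65, 2.70 and 2.70 in Tmx+. Z00031175-1 read 1.08, 1.13 and 0.95, then 1.59, 1.03 and 1.47, then 2.49, 2.58 and 2.22. Both lay above the reference in control cells, and their rises differed by less than the spread of Z00031175-1 in Tmx- (SD 0.29, n = 3). The Cy3 signal of Z00031175-1 varied from 62.9 to 517 within Tmx- and from 217 to 1046 within Tmx+, and overlapped.

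In base composition the members had a mean of 40.9% G and C in the probe (SD 6.01, n = 216 members), against 44.8% (SD 8.55) over the 23729 transcripts. The mean was also lower in the sets left out by the limit of 0.5, at 41.8% over the 136 with Tmx- below control and 38.5% over the 35 with Tmx- above. Either AATAAA or ATTAAA stood in the probe of 23 members, 10.6%, against 10.9% of the 23729, and on the opposite strand in 4.63% against 5.45%. The share with this signal was thus near that of all transcripts.

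The same rule was also applied with 1 replicate number left out of every group, and the change was then read in the Tmx+ and Tmx- arrays that had not been used. Without replicate 1 the rule took 251 transcripts, 179 of them members, and in the unused arrays they differed by a median of 1.13. Tmx+ was higher at 243 of the 251, or 96.8%, and by at least 1 at 61.4%. Over all 23958 transcripts that passed the filter on dim signals, the same arrays gave 51.1% and 1.89%. Without replicate 2 it took 260, with a median of 1.19 in the unused arrays, where 95.4% were higher and 69.2% by at least 1, against 49.2% and 1.86% of all. Without replicate 3 it took 200, with a median of 1.27, where 99.0% were higher and 82.0% by at least 1, against 52.3% and 2.29% of all.

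The condition on the control clone was read in the same way. Tmx- lay within 0.5 of control in the unused arrays at 68.5% of the transcripts chosen without replicate 1, at 69.6% of those chosen without replicate 2 and at 150 of the 200 chosen without replicate 3. Over all transcripts the shares were 88.9%, 91.4% and 91.2%. These comparisons have 1 array a side and no test. The unused arrays held the same clones as the arrays used to choose. They may also share cultures with them, so they are not known to be independent.

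**Figure D5:**
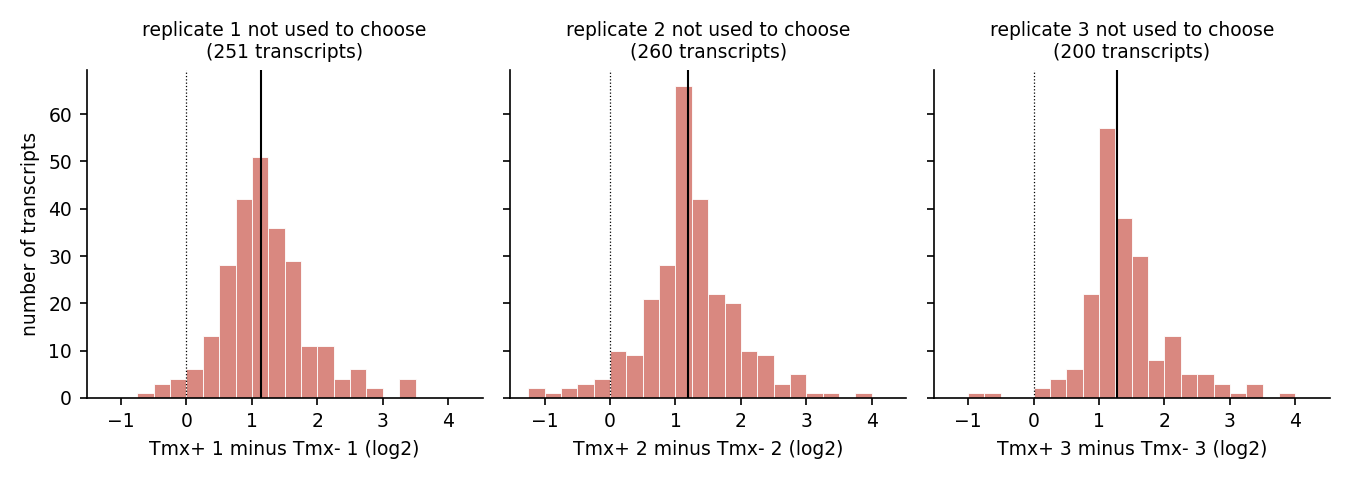
Tmx+ minus Tmx- (log2) in the replicate not used to choose the transcripts, as counts per bin of 0.25, for each replicate left out. The solid lines are the medians of 1.13, 1.19 and 1.27, the dotted lines are at 0, and few transcripts lie below 0.

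The arrays of Tmx+ lay on 2 slides and those of Tmx- on 2, with only slide 2 holding both groups. Within slide 2, between Tmx+ replicates 1 and 2 and Tmx- replicates 2 and 3, the median rise of the 216 members was 1.30, and 11 had a rise below 1. All 216 were above 0, with a lowest value of 0.63. Tmx- replicate 1, which shared its slide with control, was the highest of the Tmx- arrays at 120 members, 55.6%, against 45.9% of the 23729 transcripts. Without it the median rise of the members was 1.28.

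The rule has a mirror image, in which the tamoxifen level had to be at least 1 lower, with detection on the Tmx- arrays. It took 366 transcripts, with a median difference of -1.36 and a lowest of -3.99. In control cells their Cy3 signal had a median of 438, against 101 for the members, and 39.9% of them lay at least 1 above the reference, against 21.8% of the members. The filters alone favour a brighter untreated signal here, since detection was asked on the Tmx- arrays and, for the members, on the Tmx+ arrays. The 136 transcripts that reached the difference of 1 but were left out because Tmx- lay at least 0.5 below control had a median of 0.10 in control, -1.03 in Tmx- and 0.48 in Tmx+. Their median returned to near the control level with tamoxifen, whereas the median of the members went from near control to well above it. These sets were also chosen on the same values, and no difference between them was tested.

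The transcripts outside the group whose pattern over the 9 arrays was most like the mean of the members were Z00024549-1, Z00053767-1, Z00048538-1, Z00040336-1 and Z00015370-1. Their Pearson correlations with that mean were 0.999, 0.998, 0.997, 0.997 and 0.996, the highest among 23513. They had the same shape with a smaller rise, of 0.45, 0.84, 0.88, 0.52 and 0.71. The 9 points share the reference and the selected contrast, so the values describe the pattern only.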

How the data were processed

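The deposited scanner files of 9 two-colour arrays hold, per the file headers, output of Agilent Feature Extraction 9.5.1.1 (protocol GE2-v5_95_Feb07). Its log10 ratio of red over green, processed by the authors' scanner software with background subtraction and dye normalization, was turned in sign, multiplied by 3.3219 and averaged per probe. The deposited intensity columns gave the mean signal and local background of each dye. A deposited value table on a log10 scale, whose row selection is not stated, held 159 of the 216 members and was an alternative. The rule for members and the rule for named members (the 20 largest rises, 3 on each side of each threshold, the 3 dimmest and 3 brightest in control, families, reference matches, the 5 most similar patterns) were chosen with earlier results of these data known. Members named for dye changes, exceptions or ranges were picked after their values were seen.

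limma 3.58.1 under R 4.3.3 fitted all 9 arrays after normexp (offset 50) and loess, over the 24757 probes that at least 1 group showed well above its Cy3 background throughout, with Benjamini-Hochberg adjustment over all of them. The steps were tested on simulated data. With 3 arrays a group, the smallest two-sided exact permutation p is 0.1. Sequences were compared with blastn 2.17.0. The 42034 non-control spots carry no gene name, so the gene lists and cell type markers were not used. Alternatives changed the background correction, normalization, source of values, thresholds, filter, blocks and arrays. Agilent's processed ratio gives dim probes larger rises than normexp with an offset.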

Additional observations from a re-analysis of the deposited data

How the results depend on the processing

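The 216 members depend on the scale and the thresholds. The rule took 73 transcripts after normexp with offset 50 and loess (64 of them members), 139 with offset 10 (120), 71 with median centring (61), 67 with a rise of at least 1.5, 372 with 0.8 and 133 with Tmx- within 0.25 of control. With the other planned settings it took between 154 and 314, among them 225 on the Cy3 signal alone (158). Leaving out single arrays gave 195 to 245, and leaving out a replicate number in every group 200 to 260. The median rise of the 216 was 0.78 after normexp with offset 50 and loess, 1.03 with offset 10 and 0.68 with median centring, and it moved by less than the median SD within groups in the other settings, between 1.24 and 1.28 without single arrays. No named member changed sign. The members called higher by limma numbered 193 to 216 in the settings that tested all members, and 208 to 215 without single arrays. They numbered 157 of the 159 in the value table. With the replicate block 215 members were called. Beside these counts, the share of all tested transcripts called higher ranged from 5.05% (Cy3 signal alone) to 25.7% (without Tmx- replicate 1). The counts of members follow from their choice by the same contrast and are no separate support. Same-numbered arrays deviated with correlations from -0.403 to 0.173, so the numbers do not pair the samples. Chosen after seeing the data, leaving out members with a surrogate value kept 199, with a median rise of 1.23, and asking for Cy3 signals without overlap kept 208. At the 62 members not well above background on all 9 arrays, at least 1 untreated ratio rests on a signal not well above background.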

Other observations

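The 3 members with the dimmest Cy3 signal in control were Z00025216-1, Z00060430-1 and Z00025121-1, with means of 5.78, 5.88 and 9.33. Z00025121-1 read 0.00, 0.65 and 1.04 in Tmx- and 2.51, 2.05 and 2.74 in Tmx+, and its Cy3 signal was 7.35, 9.67 and 11.99 in Tmx- and 48.0, 77.8 and 68.9 in Tmx+. It was not well above background on any untreated array, and Tmx+ was at least 1.35-fold above Tmx-. A surrogate value in either dye stood on at least 1 array at 17 members, and at 4 of these the ratio was exactly 0 on at least 1 array.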
